A study of Mus musculus with 6 samples.

Results

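The resistin-like genes Retnla, Retnlb, Retnlg and Retn were examined in bronchial smooth muscle cells (BSMCs) from mice with and without allergic airway inflammation. The 4 genes are all the members of the family that were sought by symbol, and each had 1 probe set among the 20239 with a gene symbol. The asthma group was made by 2 intraperitoneal injections of 50 µg ovalbumin (OVA) on days 0 and 7, and the control group was injected with PBS in place of OVA. Both groups then inhaled nebulized OVA on 5 days, from day 14 to day 18, and were killed on day 19, so the control samples are allergen challenged and differ in sensitization. All mice carried both a GFP transgene driven by the rat α-smooth muscle actin promoter and a DsRed transgene driven by the NG2 promoter, and the labels give the strain as C57BL/6J and no age. BSMCs were taken by sorting as GFP positive cells without DsRed, CD45 or CD31. There were 3 asthma and 3 control samples with 1 whole-transcript array each. The study's methods describe each RNA sample as a pool of several mice after sorting, whereas the labels name single animals and microdissected muscle and give the OVA injections for every sample. Groups follow the sample titles. The family was singled out with earlier results of the same comparison in view, in which Retnla and Retnlg differed between the groups, so the differences of the 4 genes are given as a description and are not tested.

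Resistin-like molecules are small secreted proteins with a cysteine-rich carboxyl terminus. In the mouse, Retnla encodes RELMα, also called FIZZ1 or HIMF, which macrophages, eosinophils and airway epithelium make in type 2 inflammation, and which IL-4 and IL-13 induce through the transcription factor STAT6. Retnlb encodes RELMβ, a product of intestinal goblet cells. Retnlg encodes RELMγ, which is found in bone marrow and neutrophils, and Retn encodes resistin, a hormone that mouse adipocytes secrete. RELMα was first described in the lavage fluid of mouse lungs with allergic inflammation.

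Retnlb, Retnla and Retnlg lie next to one another on mouse chromosome 16 with no other annotated gene between them, and Retn lies on chromosome 8. The sequence upstream of Retnlb was not available. Those of Retnla and Retnlg are shown because both stood higher on asthma arrays by more than a small fraction of a log2 unit. That of Retn, which did not, is shown beside them. They are the 250 bases before the annotated start, from RefSeq, on the plus strand of GRCm38.p6, at chr16:48842359-48842608 for Retnla, chr16:48872358-48872607 for Retnlg and chr8:3655520-3655769 for Retn. Capitals mark matches on either strand to the STAT6 motif, TTC and GAA with any 4 bases between them, or to TTNNGNAA, a C/EBP core.
Retnla: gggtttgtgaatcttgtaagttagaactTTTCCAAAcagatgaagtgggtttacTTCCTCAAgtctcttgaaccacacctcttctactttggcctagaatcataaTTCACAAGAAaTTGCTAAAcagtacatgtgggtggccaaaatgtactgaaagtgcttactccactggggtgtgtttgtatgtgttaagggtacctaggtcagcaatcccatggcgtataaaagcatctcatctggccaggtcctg
Retnlg: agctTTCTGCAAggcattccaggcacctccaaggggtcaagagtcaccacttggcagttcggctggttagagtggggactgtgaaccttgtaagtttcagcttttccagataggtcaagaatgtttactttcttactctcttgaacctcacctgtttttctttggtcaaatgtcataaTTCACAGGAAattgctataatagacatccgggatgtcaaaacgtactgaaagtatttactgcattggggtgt
Retn: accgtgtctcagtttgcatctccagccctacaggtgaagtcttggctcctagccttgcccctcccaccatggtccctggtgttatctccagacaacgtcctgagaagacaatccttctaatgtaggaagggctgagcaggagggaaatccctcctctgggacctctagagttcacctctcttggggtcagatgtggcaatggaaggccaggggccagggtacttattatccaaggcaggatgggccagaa

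The windows of Retnla and Retnlg aligned over 173 columns, of which 135 were identical (78.0%). Each held 1 match to the STAT6 motif, TTCACAAGAA at positions -145 to -136 of Retnla and TTCACAGGAA at positions -72 to -63 of Retnlg, where -1 is the base before the annotated start. The alignment set these sites opposite each other, and the different positions follow the annotated starts. Of the 32851 windows of the same length in the table, 5.85% held this motif. The C/EBP core had 3 matches in Retnla, of which TTGCTAAA at positions -134 to -127 stood 1 base from the STAT6 motif, and 1 match in Retnlg, at positions -246 to -239. It was present in 36.8% of all windows. Neither TTCNNNGAA, the spacing of other STAT factors, nor ACGTG, the core of the hypoxia response element, was found in the 3 windows (7.02% and 16.6% of all windows), and the window of Retn held none of the 4 motifs. A match is a string of letters and not a bound site.

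The arrays were first compared as wholes. Their medians lay between 6.73 and 6.79 on the log2 scale. In a principal components analysis of all 21225 probe sets, asthma 2 lay 83.1 units from the mean of the other arrays in the first 2 components, against 11.6 to 43.2 for the other 5. The methods left out 1 asthma array as an outlier of such an analysis without naming it, and asthma 2 was taken to be that array. The comparison below therefore sets asthma 1 and asthma 3 against the 3 control arrays, and the level on asthma 2 is given beside it. The values of asthma 2 were compressed, since its levels minus those of the other arrays fell by 0.17 for each log2 unit of level, so dim probe sets tended to read higher there and bright ones lower. Acta2, whose promoter drives the GFP used for sorting, had levels of 12.44, 12.09 and 12.52 on asthma 1, 2 and 3, and 12.39, 11.87 and 12.13 on control 1, 2 and 3. Ptprc, which encodes the CD45 that the sort selected against, had levels of 8.09, 6.18 and 8.31 on the asthma arrays, and 6.84, 8.10 and 7.77 on the control arrays. Arrays have no read depth, and their number limits the precision of every value.

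Retnla (Entrez 57262) had levels of 10.26 and 10.39 on asthma 1 and asthma 3, and of 9.48 on asthma 2, against 5.91, 7.56 and 8.86 on control 1, 2 and 3. All 3 asthma arrays stood above every control array, by at least 0.62 with asthma 2 and by at least 1.40 without it. The mean level was 10.33 ± 0.093 (SD, n = 2) on asthma arrays and 7.45 ± 1.48 (SD, n = 3) on control arrays, a difference of 2.88 on the log2 scale, or 7.37-fold. Ordered from the most positive difference, Retnla had rank 3 of all 20239 genes, both with 5 and with all 6 arrays. The asthma arrays lay close together and the control arrays did not. The control arrays spanned 2.95 log2 units, slightly more than the difference between the group means, and their SD exceeded that of 99.9% of genes. The estimated difference depended on which control array was present. It was 2.12 without control 1 and 3.59 without control 3, or 4.33-fold and 12-fold, and stayed between 2.82 and 2.95 when any other array was left out. With asthma 2 included it was 2.60, or 6.06-fold. In RNA from sorted pools, more cells that make a transcript and more transcript per cell cannot be told apart.

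**Figure D1:**
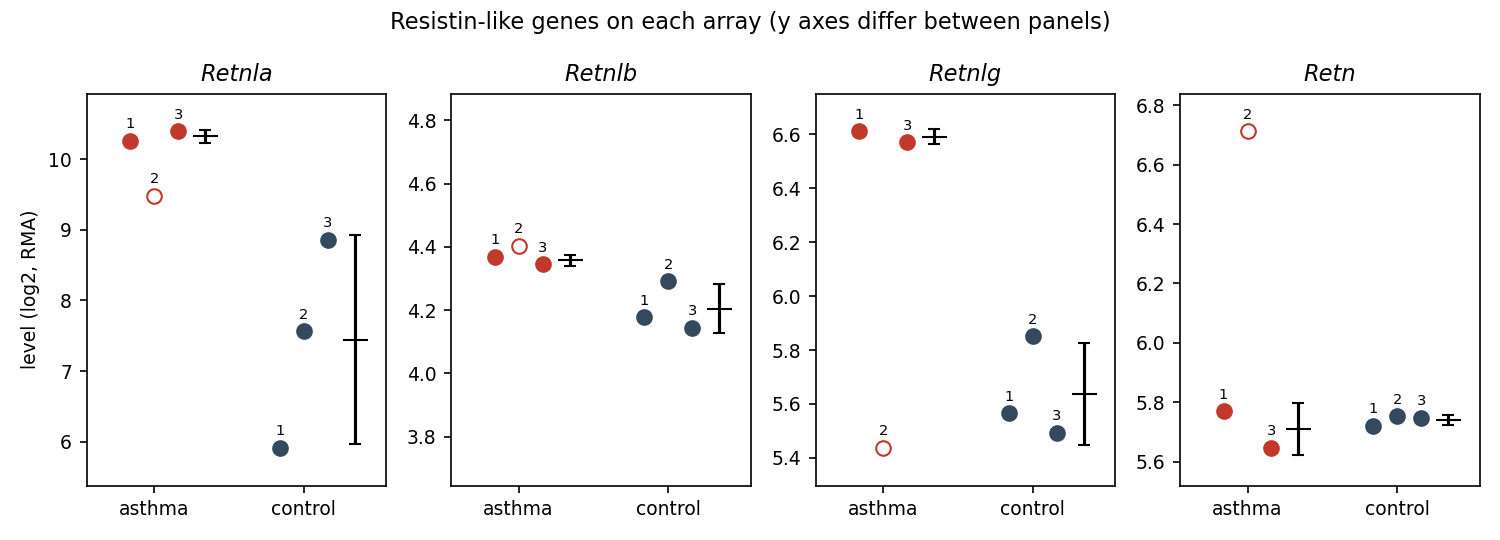
Level of each resistin-like gene on each array (log2, RMA; the y axes differ between panels), with asthma arrays in red and control arrays in blue-grey, numbered by replicate. The open circle is asthma 2; the bar and whiskers are the mean and SD of asthma 1 and 3 or of the 3 control arrays. All 3 asthma arrays lie above the control arrays for Retnla and Retnlb, asthma 1 and 3 do so for Retnlg, and Retn is set apart only on asthma 2.

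Retnlg (Entrez 245195) had levels of 6.61 and 6.57 on asthma 1 and asthma 3 and of 5.44 on asthma 2, against 5.56, 5.85 and 5.49 on control 1, 2 and 3. Asthma 1 and asthma 3 stood at least 0.72 above every control array, but asthma 2 stood below all of them, as did 37.7% of all genes on that array. The mean level was 6.59 ± 0.028 (SD, n = 2) on asthma arrays and 5.64 ± 0.19 (SD, n = 3) on control arrays, a difference of 0.96 or 1.94-fold. Both groups were tight, and leaving out any 1 of these 5 arrays kept the difference between 0.88 and 1.06. With asthma 2 the groups overlapped and the difference was 0.57, or 1.48-fold. The 1752 genes whose mean control level lay within 0.25 of that of Retnlg had a median difference between asthma 2 and the control mean of 0.46, whereas that of Retnlg was -0.20. For Retnla the 1728 genes of like control level had a median of -0.19, and Retnla itself a difference of 2.04 on asthma 2.

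Retnlb (Entrez 57263) had levels of 4.37 and 4.35 on asthma 1 and asthma 3 and of 4.40 on asthma 2, against 4.18, 4.29 and 4.14 on control 1, 2 and 3. The groups did not overlap, but they were separated by only 0.054 log2 units. The mean level was 4.36 ± 0.017 (SD, n = 2) on asthma arrays and 4.20 ± 0.077 (SD, n = 3) on control arrays, a difference of 0.15 or 1.11-fold. All 6 values lay under the lower quartile of their arrays, 5.25 to 5.71. The values carry no measure of signal over background, so whether Retnlb mRNA was detected is not known. When the 6 arrays were quantile normalized together, the difference was 0.027.

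Retn (Entrez 57264) had levels of 5.77 and 5.65 on asthma 1 and asthma 3, against 5.72, 5.75 and 5.75 on control 1, 2 and 3. The groups overlapped. The mean level was 5.71 ± 0.087 (SD, n = 2) on asthma arrays and 5.74 ± 0.017 (SD, n = 3) on control arrays, a difference of -0.032. The sign turned when asthma 3 was left out, to 0.030. On asthma 2 the level was 6.71, which is 0.97 above the control mean, and with that array the difference was 0.30. Genes of like control level, 1779 in number, had a median difference of 0.44 on asthma 2. Of all genes, 45.7% stood above every control array on asthma 2.

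Of the 4 members, Retnla, Retnlb and Retnlg stood higher without overlap between asthma 1 and 3 and the control arrays, as did 11.9% of all genes, and with all 6 arrays Retnla and Retnlb did so, beside 4.16% of all genes. Nothing is read from these counts, since the members were chosen on this comparison.

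**Figure D2:**
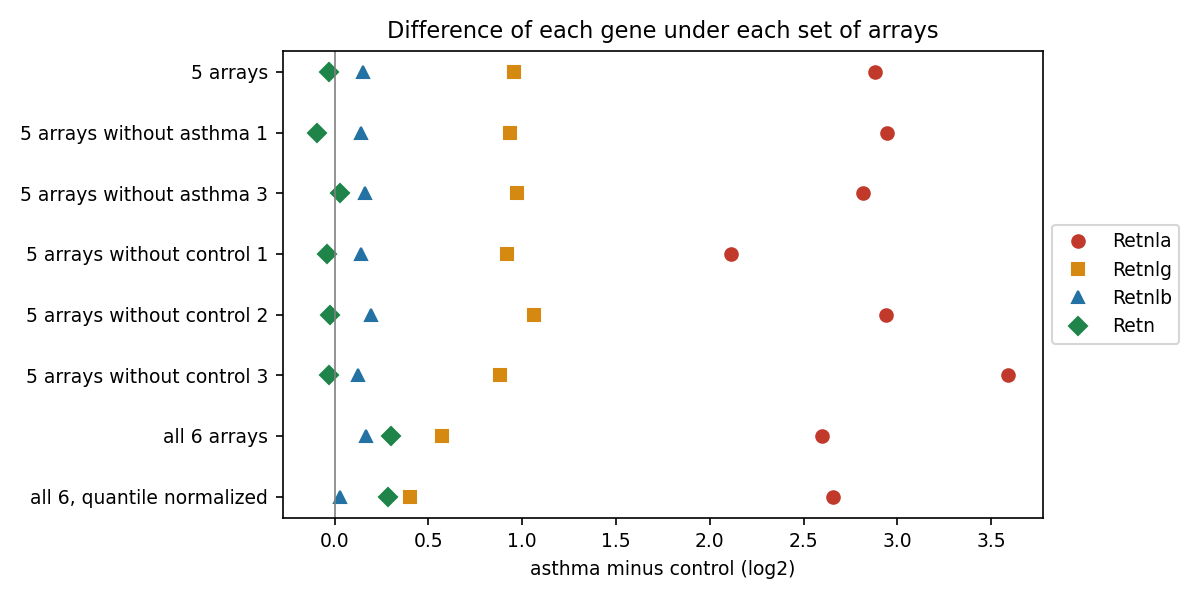
Asthma minus control difference (log2, x axis) of the 4 genes, for the 5 arrays compared, for these with each array left out in turn, and for all 6 arrays as deposited or quantile normalized together. Retnla moves between 2.12 and 3.59 with the control arrays, whereas Retnlg moves mostly with asthma 2, from 0.96 for the 5 arrays to 0.57 for all 6.

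The 2 members whose level varied by an SD of at least 0.5 over the 6 arrays were Retnla and Retnlg, and the genes with the most similar profile were sought for each. Profiles were centred on each gene's mean and compared by the root mean square difference over the 6 arrays, so that a small value means like amounts of change on the same arrays. This is a description with no test. The 5 genes most like Retnla were Lcn2, an iron-binding defence protein (root mean square difference 0.42 log2 units), Chl1, a cell adhesion molecule (0.50), Col6a5, a chain of type VI collagen (0.57), Saa3, an acute phase protein (0.57), and Tdo2, an enzyme of tryptophan breakdown (0.67). All 5 were lowest on control 1. Lcn2 and Saa3 shared the wide range of Retnla among control arrays, with levels of 8.20, 9.47 and 10.95 for Lcn2 and 7.43, 9.41 and 10.19 for Saa3 on control 1, 2 and 3. Their levels on asthma 1, 2 and 3 were 11.59, 11.38 and 11.47 for Lcn2 and 11.09, 11.67 and 10.91 for Saa3. Of these 5 genes, 4 were also the closest over the 5 arrays without asthma 2, where Mmp12, the macrophage elastase, took the place of Tdo2 (0.57).

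The profile of Retnlg was closest to those of Ccr1, a chemokine receptor of myeloid cells (0.19), Igkv6-20, an immunoglobulin light chain segment (0.20), Fhl5, a LIM domain protein (0.20), Clec4a1, a C-type lectin receptor (0.20), and Gimap3, a GTPase of lymphocytes (0.21). For all 5 the level on asthma 2 was below those on asthma 1 and 3. Ccr1 had levels of 5.23, 4.63 and 5.55 on asthma 1, 2 and 3, and of 4.39, 4.98 and 4.51 on control 1, 2 and 3. Only Ccr1 remained among the 5 closest genes when asthma 2 was left out, so this set rests on that array.

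**Figure D3:**
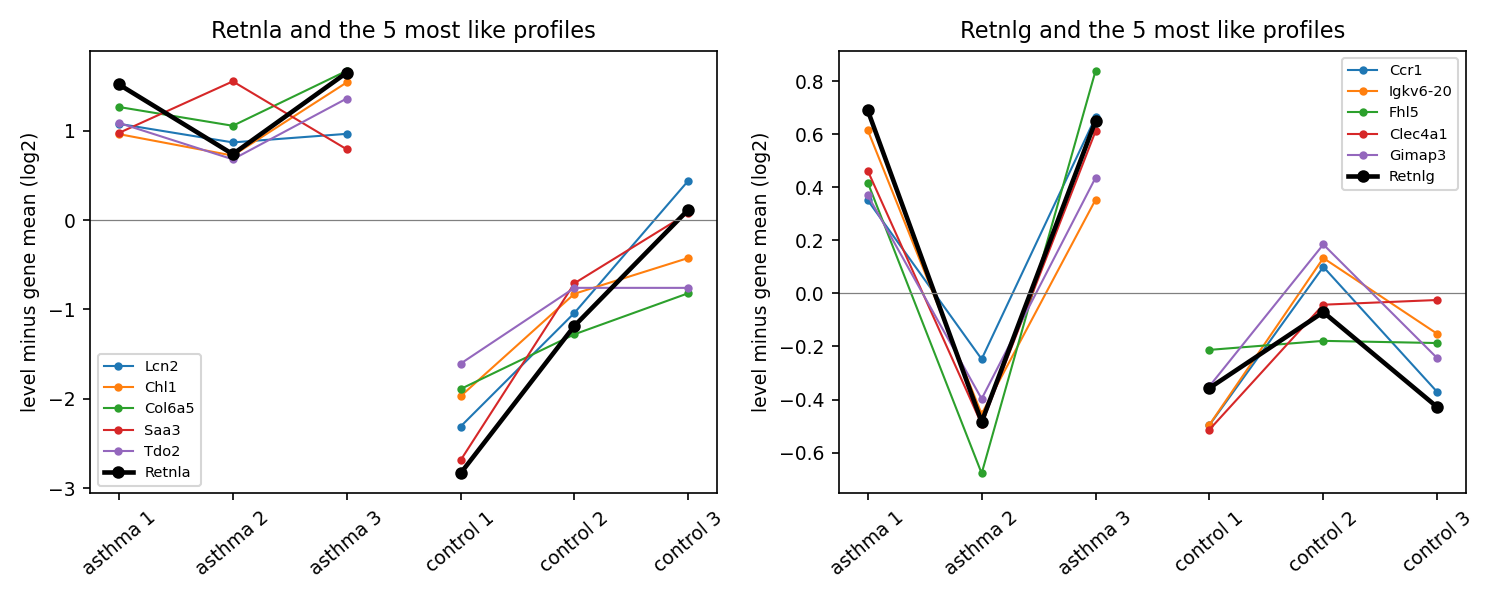
Level minus the gene's own mean (log2, y axis) on each array for Retnla (left, black) and Retnlg (right, black) with the 5 genes of most similar profile in colour. Retnla and its neighbours are lowest on control 1 and high on all asthma arrays, whereas Retnlg and its neighbours are high on asthma 1 and 3 and lower on asthma 2.

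Other genes that IL-4 and IL-13 induce were set beside the family, followed by its regulators. Of 27 measured genes that IL-4 and IL-13 induce, Retnla not among them, 10 had an unadjusted p under 0.01 and were higher on asthma 1 and 3, and 0 were lower, where 0.963% of all genes were higher and 1% lower at this threshold. The median difference of the list was 0.80, against -0.022 for all genes tested, with 25 genes positive. The list was written with results of these samples known and is not independent evidence. Il13ra2, the gene of a high affinity receptor that captures IL-13, rose, with levels of 5.59 and 6.21 on asthma 1 and asthma 3 and 5.03 on asthma 2, against 3.74, 3.63 and 3.48 on the control arrays (difference 2.28, standard error 0.19, adjusted p = 0.183 from limma). It was the only gene of the list to pass an FDR of 0.25, which 0.0296% of all genes passed with a positive difference and 0.0395% in either direction, and no gene of the list passed it without asthma 3, control 1 or control 2, or with all 6 arrays (adjusted p = 0.635 for Il13ra2). Slc26a4, an anion exchanger, Postn, which encodes periostin, and Chia1, an acidic chitinase, had differences of 1.29, 0.68 and 2.29 (adjusted p = 0.267, 0.277 and 0.413 from limma). Over all 6 arrays the median was 0.54, and 7 of the 27 genes reached the same unadjusted p, as did 0.282% of all genes. Without 1 control array the count lay between 8 and 11, beside 0.756% to 1.73% of all genes. With the replicate number as a block it was 19, beside 1.73% of all genes, with 3 genes under the FDR. In the block control 2 has no partner, so counts from it rest on few arrays.

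Of 17 measured regulators, none passed an FDR of 0.25, and 1, Cebpd, had an unadjusted p under 0.01, which it did not have with all 6 arrays or without asthma 1, asthma 3, control 1 or control 2 (the median was -0.046). Stat6 had levels of 9.79 and 9.69 on asthma 1 and asthma 3 and 9.35 on asthma 2, against 9.77, 9.80 and 9.84 on the control arrays. The difference was -0.059 (standard error 0.083, adjusted p = 0.829 from limma). Il4ra, the receptor chain that IL-4 and IL-13 share, differed by -0.022 (standard error 0.088, adjusted p = 0.947). The C/EBP factors that can act on this family had lower means on asthma arrays, with differences of -0.57 for Cebpd, -0.36 for Cebpb and -0.22 for Cebpa, and their adjusted p lay between 0.48 and 0.532. Pparg, a regulator of resistin in adipocytes, differed by -0.12 and Hif1a, the hypoxia factor, by 0.34 (adjusted p = 0.698 and 0.577). The alarmin Il33 and the receptor chain Il13ra1 differed by 0.81 and 0.32 (adjusted p = 0.532 and 0.516).

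The mRNA of proteins reported to bind resistin-like molecules was measured in all groups, and none of 5 genes passed the FDR or had an unadjusted p under 0.01. Cap1, which binds human resistin, had a difference of 0.24 (standard error 0.14, adjusted p = 0.601 from limma), and Tlr4, a further candidate receptor of resistin, one of -0.17 (standard error 0.23, adjusted p = 0.827). Ror1 and Dcn, proposed receptors of mouse resistin, differed by 0.19 and -0.15 (adjusted p = 0.686 and 0.609), and Btk, a kinase reported to bind RELMα, by 0.39 (adjusted p = 0.577). The intervals these errors allow are wide, and a difference that missed the threshold is not shown to be absent. The median of these 5 genes was 0.19 with 5 arrays and -0.093 with all 6.

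Markers of the cells known to make these proteins were set beside the members. Of 20 markers of macrophages, 5 are also among the 27 IL-4 and IL-13 targets. At an unadjusted p under 0.01, 3 of the 20 were higher on asthma 1 and 3, beside 0.963% of all genes. They were Mgl2, Msr1 and Arg1, and Mgl2 and Arg1 are among the 5 shared genes. The median difference of the 20 was 0.64. With all 6 arrays the median was 0.43. The count was 1 with all 6 arrays or without control 2, beside 0.282% and 0.756% of all genes. Without control 3, 1 marker was lower at this p. Without control 1 or control 3 the count of higher markers was 4, beside 0.988% and 1.73% of all genes. With the replicate number as a block it was 11 of 20, beside 1.73% of all genes, and control 2 has no partner in that block. Over the list the mean level was 7.24, 6.61 and 7.52 on asthma 1, 2 and 3, and 6.38, 6.92 and 7.02 on control 1, 2 and 3. The summed level of the list lay between 132.1 and 150.4 on asthma arrays and between 127.6 and 140.5 on control arrays. All 15 markers of leukocytes in general had positive differences (median 0.66) and none had an unadjusted p under 0.01. With all 6 arrays their median was -0.016, so the positive median rests on leaving out asthma 2. With the replicate number as a block 8 had such a p, beside 1.73% of all genes. Without control 1 the count was 1, beside 0.988%. Their mean level was 8.53, 6.81 and 8.82 on asthma 1, 2 and 3, and 7.43, 8.41 and 8.36 on control 1, 2 and 3, and their summed level ranged from 102.1 to 132.3 on asthma arrays and from 111.5 to 126.2 on control arrays. Among the control arrays Retnla was lowest on control 1. So were the macrophage, leukocyte, eosinophil, neutrophil, epithelium and endothelium lists, the IL-4 and IL-13 targets and the regulators. Like Retnla, the macrophage, eosinophil, epithelium and mucus cell lists, the IL-4 and IL-13 targets and the regulators were highest on control 3. The smooth muscle and adipocyte lists were highest on control 1. The leukocyte, neutrophil and endothelium lists were highest on control 2. The mean of all genes tested was 6.774, 6.779 and 6.802 on control 1, 2 and 3. The part of any of these cell types in the levels of Retnla and Retnlg was not tested.

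Of 17 measured neutrophil markers, none had an unadjusted p under 0.01, and the median was 0.050. Without control 2 or control 3, 1 marker did in each case, beside 0.756% and 1.73% of all genes. Without control 3, 1 passed the FDR, as did 68 of all genes tested. With the replicate number as a block 3 had such a p, beside 1.73% of all genes. Their mean level was 5.96, 5.89 and 5.99 on asthma 1, 2 and 3, and 5.59, 5.92 and 5.85 on control 1, 2 and 3, with summed levels of 100.1 to 101.9 on asthma arrays and 95.0 to 100.7 on control arrays. Mmp8, the neutrophil collagenase, had levels of 7.36 and 7.21 on asthma 1 and asthma 3 and 7.15 on asthma 2, against 5.09, 5.57 and 7.07 on the control arrays (difference 1.37, adjusted p = 0.532 from limma). Stfa2l1, a stefin of neutrophils, had levels of 3.66 and 3.94 on asthma 1 and asthma 3 and 3.57 on asthma 2, against 3.22, 3.54 and 3.27 on the control arrays (difference 0.46, adjusted p = 0.48). For both genes all 3 asthma arrays stood above every control array, as did 4.16% of all genes. Stfa2l1 on asthma 2 did so only narrowly, with 3.57 against 3.54 on control 2. All 6 values of Stfa2l1 lay under the lower quartile of their arrays, 5.25 to 5.71, and dim probe sets tended to read higher on asthma 2. Over the whole list, 11 differences were positive and 6 negative. S100a8, a calcium-binding protein abundant in neutrophils, had levels of 6.46 and 5.87 on asthma 1 and asthma 3 and 5.18 on asthma 2, against 5.67, 5.84 and 5.65 on the control arrays (difference 0.45, adjusted p = 0.534 from limma). It stood above every control array on asthma 1 and asthma 3 and below each of them on asthma 2. Ly6g, which marks neutrophils, had levels of 5.06 and 4.84 on asthma 1 and asthma 3 and 5.41 on asthma 2, against 5.03, 5.13 and 4.90 on the control arrays, which overlap.

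Of 10 measured markers of eosinophils, 1, the ribonuclease Rnase2a, had an unadjusted p under 0.01, and the median of the list was 0.076. Rnase2a had levels of 9.26 and 9.44 on asthma 1 and asthma 3 and 6.30 on asthma 2, against 4.70, 4.76 and 6.76 on the control arrays (difference 3.94, adjusted p = 0.413 from limma). With all 6 arrays no eosinophil marker had an unadjusted p under 0.01. Without control 3, or with the replicate number as a block, 1 passed the FDR, as did 68 and 38 of all genes tested. The mean level of the list was 6.21, 5.98 and 6.22 on asthma 1, 2 and 3, and 5.59, 5.68 and 5.97 on control 1, 2 and 3, with summed levels of 59.8 to 62.2 on asthma arrays and 55.9 to 59.7 on control arrays. Of 12 markers of mucus cells, which make RELMβ in the gut, none had an unadjusted p under 0.01 (median -0.051, and 0.175 with all 6 arrays). None did of 10 measured markers of adipocytes, the source of mouse resistin (median -0.020, and -0.054 with all 6 arrays). Adipoq, the defining adipocyte hormone, had levels of 3.91 and 3.72 on asthma 1 and asthma 3 and 4.38 on asthma 2, against 3.81, 3.85 and 3.80 on the control arrays. Of 13 measured markers of epithelium, which can make RELMα, 1, Krt8, had an unadjusted p under 0.01 and was lower, with 0 such markers without asthma 3, 3 without control 1 and 2 with all 6 arrays, and 12 of 13 differences were negative (median -0.39). In the 5 arrays 1% of all genes were lower at this p. Without control 1 it was 151 of 20239 genes, and with all 6 arrays 117. None of 14 markers of airway smooth muscle had an unadjusted p under 0.01, with 14 positive differences (median 0.63, and 0.37 with all 6 arrays). However, 5 did without control 1 and 1 without control 2, beside 0.988% and 0.756% of all genes. None of 12 endothelial markers had such a p, with 11 negative differences (median -0.41, and -0.83 with all 6 arrays).

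**Figure D4:**
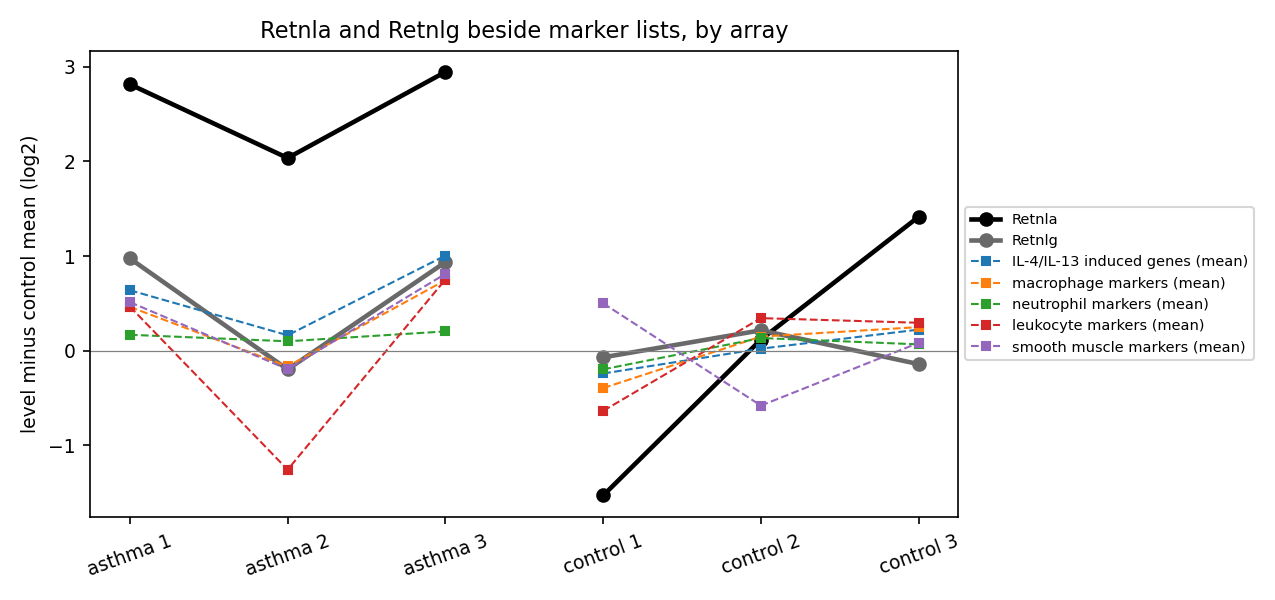
Level minus the mean of the 3 control arrays (log2, y axis) on each array for Retnla and Retnlg (solid lines) and for the mean of each marker list (dashed lines). Retnla stands 2.04 above the control mean on asthma 2. The control arrays of Retnla span 2.95, and the mean of a list spans at most 1.08. A mean over many genes varies less than a single gene, so these spans are not alike. The listed gene Mmp8 alone ran from 5.09 to 7.07 on the control arrays.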

How the data were processed

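The deposited values are log2 levels of 21225 gene-level probe sets, which the authors made by background correction, normalization and summarization of Affymetrix Mouse Gene ST arrays. The submitters' processing notes name RMA and affy and the methods name the oligo package; tool versions and the build were not given in the sources used here. Values were used as deposited. Tests covered the 20239 probe sets with 1 gene symbol, and 986 others were not named in the table used. The asthma array farthest in the first 2 principal components was left out, as the methods did.

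Differences are asthma minus control, from lmFit and eBayes of limma 3.58.1 (R 4.3.3), two-sided, with Benjamini-Hochberg adjustment over all genes tested. The words rose and fell are kept for an FDR under 0.25. Nothing says that the samples were independent cultures or litters, so p-values measure the spread between these samples. Members, gene lists, motifs and named genes were chosen with earlier results of these data known; named genes were the members, the 5 closest profiles, the binding partners, 6 regulators, Acta2, Ptprc and up to 4 genes of smallest p in each list, and Mmp12, Ly6g and Adipoq were added after their values were seen. The lists held 3 sets of pathway genes and markers of 9 cell types, and 8 listed genes were not measured. Upstream windows came from RefSeq (GRCm38.p6) and were aligned with Biopython 1.88; 3 of the 4 members matched a window. The limma steps were tested on simulated data. Alternatives were all 6 arrays, leaving out each array, the replicate number as a block, further normalization, a filter on dim probe sets and other variance models.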

Additional observations from a re-analysis of the deposited data

Results flagged for a closer look

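The level on asthma 2, an array outside the 5 compared, stood above every control array for 3 of the 4 members. It was 9.48 for Retnla, 4.40 for Retnlb and 6.71 for Retn. Of all genes tested, 45.7% stood above every control array on asthma 2. Genes of like control level had a median difference between asthma 2 and the control mean of 0.55 for Retnlb, whose own difference was 0.20, of 0.44 for Retn, whose own was 0.97, and of -0.19 for Retnla, whose own was 2.04.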

How the results depend on the processing

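The difference of Retnla was positive under every alternative run. Leaving out 1 array gave differences of 2.12 to 3.59 for Retnla, 0.12 to 0.20 for Retnlb, 0.88 to 1.06 for Retnlg and -0.094 to 0.030 for Retn, and 0 to 68 genes at an FDR under 0.25 and 109 to 575 at an unadjusted p under 0.01, where 5 arrays gave 8 and 398. All 6 arrays gave differences of 0.57 for Retnlg and 0.30 for Retn, with 1 and 174 genes. All 6 arrays quantile normalized together, chosen after seeing the data, gave 0.027 for Retnlb, 0.40 for Retnlg and 0.28 for Retn, with 3 and 217 genes. The planned estimation of array weights stopped before it converged and was not used; weights estimated gene by gene instead, also chosen after seeing the data, put asthma 2 at 0.085 and the others at 1.05 to 3.30, so that it was nearly left out, with 563 and 743 genes. A filter on dim probe sets left 1 gene at an FDR under 0.25, and an ordinary t statistic gave 1 and 244. The cause of these shifts was not tested. The replicate number as a block gave 38 genes at an FDR under 0.25 and differences of 2.94, 0.20, 1.06 and -0.026 for Retnla, Retnlb, Retnlg and Retn. Same-numbered arrays had correlations of -0.11, -0.036 and 0.015 in their deviations from the group means. The asthma mean included asthma 2, which lay far from the other arrays. These correlations therefore cannot decide whether the numbers pair the samples. Without asthma 2, control 2 has no partner in the block. Retnlb lies at low levels where signal over background is unknown.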

Other observations

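The nearest measured genes outside the family were looked at on both chromosomes, chosen by position. Trat1 and Dzip3, which flank the group of Retnlb, Retnla and Retnlg on chromosome 16, differed by -0.14 (standard error 0.081, adjusted p = 0.607 from limma) and 0.13 (standard error 0.12, adjusted p = 0.737), so neither passed an FDR of 0.25. Dzip3 had levels of 8.07, 7.80 and 7.73 on asthma 1, 2 and 3, against 7.79, 7.77 and 7.77 on control 1, 2 and 3. Beside Retn on chromosome 8, Stxbp2, a protein of granule release, differed by 0.24 and Mcemp1, a membrane protein of mast cells and other myeloid cells, by 0.23 (adjusted p = 0.632 and 0.532). Among targets of IL-4 and IL-13, 20 measured genes had an upstream window and 3 of these (15%) held the STAT6 motif, namely Ccl17, Fcer2a and Pdcd1lg2, beside 6.31% of all genes tested that had a window. This was not tested.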
